A study of Mus musculus with 18 samples.

Results

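A set of 10 genes of cytokine signalling was followed by cell type in the hippocampus (Hip) and the prefrontal cortex (PFC) of mice with and without a gut microbiota. They are the receptor genes Il6ra, Il6st, Il1rap, Il1rapl1, Il1rapl2, Il10ra and Il10rb, the cytokine genes Il18 and Il33, and Mif, taken by gene symbol, so they are 10 of the 30905 genes counted. The nuclei came from 9 male Kun Ming mice, an outbred stock, all killed at 8 weeks of age. Germ-free (GF) mice 5, 6 and 7 were raised without microbes in isolators, specific pathogen-free (SPF) mice 30, 31 and 32 carried a microbiota, and colonized germ-free (CGF) mice 17, 18 and 19 were GF mice that shared a cage with an SPF mouse in an isolator from weaning age to the end. The labels name no transgene and no drug, Hip and PFC were taken from the same animals, and each region of each mouse was 1 library of single-nucleus RNA-seq. Values are given below in that order of mice.

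Interleukins act through receptors built from a ligand-binding chain and a shared signalling chain. IL-6 binds IL-6 receptor alpha (Il6ra), after which the pair engages gp130 (Il6st), a chain also used by the LIF, oncostatin M and CNTF receptors, and signals through JAK kinases and STAT3. IL-1 and IL-33 both need the accessory protein encoded by Il1rap. Il1rapl1 and Il1rapl2 encode relatives of that protein with a role in synapses, where IL1RAPL1 binds the phosphatase PTPRD across the cleft, and neither is known as a classical cytokine receptor. IL-18 and IL-33 are cytokines of the IL-1 family that are made without a signal peptide, IL-33 being stored in the nucleus as an alarm signal. IL-10 acts through Il10ra, which binds it, and Il10rb, a chain shared with other cytokine receptors, to restrain immune cells. Macrophage migration inhibitory factor (Mif) is a small secreted protein that binds CD74 and chemokine receptors.

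The 10 genes differ widely in size, which bears on results below. On mouse genome build GRCm38 (GENCODE vM21), Il1rapl1 spans chrX:86740870-88115645 on the minus strand, 1374.78 kb, and Il1rapl2 spans chrX:137570608-138846946 on the plus strand, 1276.34 kb. Mif is the smallest member, at chr10:75859353-75860240 on the minus strand, 0.888 kb with 2 exons, and the annotation holds 2 Mif pseudogenes whose similar sequence can take or lose its reads. The median gene of the files spans 12.642 kb. Il6ra lies at chr3:89864059-89913196 (minus), Il6st at chr13:112464070-112510086 (plus), Il1rap at chr16:26581704-26730117 (plus), Il18 at chr9:50554827-50581840 (plus), Il33 at chr19:29925114-29960718 (plus), Il10ra at chr9:45253837-45269149 (minus) and Il10rb at chr16:91406164-91425834 (plus). Il10rb, Il10ra and Il1rapl1 overlap 1, 1 and 4 genes on their own strand, Gm21970, Mir7086 and predicted genes respectively, so their counts are uncertain. On the opposite strand Il18 overlaps Bco2 and Tex12, Il1rapl2 overlaps Tex13a and 8 predicted genes, and Il6ra, Il1rap, Il1rapl1 and Il10ra overlap 1 predicted gene each. Il6st, Il33 and Mif overlap none.

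The 250 bases upstream of a gene's start are printed for 4 members that stand for the patterns below: a microglia-led receptor (Il6ra), a gene measured in neurons and glia alike (Il1rapl1), an astrocyte-led cytokine (Il18) and the gene that passed in every tested cell type of Hip between GF and SPF mice (Mif). The sequences are from RefSeq (GRCm38.p6), 5′ to 3′ on the gene's strand, and capitals mark each CG, the dinucleotide that gathers in CpG islands. They lie at chr3:89913197-89913446 (minus), chrX:88115949-88116198 (minus), chr9:50554450-50554699 (plus) and chr10:75860278-75860527 (minus).
Il6ra: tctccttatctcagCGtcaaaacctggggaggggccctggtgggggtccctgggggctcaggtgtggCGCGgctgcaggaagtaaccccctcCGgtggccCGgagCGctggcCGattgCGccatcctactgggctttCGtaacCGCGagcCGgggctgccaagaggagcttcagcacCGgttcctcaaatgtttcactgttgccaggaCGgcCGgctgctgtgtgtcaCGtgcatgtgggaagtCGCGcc
Il1rapl1: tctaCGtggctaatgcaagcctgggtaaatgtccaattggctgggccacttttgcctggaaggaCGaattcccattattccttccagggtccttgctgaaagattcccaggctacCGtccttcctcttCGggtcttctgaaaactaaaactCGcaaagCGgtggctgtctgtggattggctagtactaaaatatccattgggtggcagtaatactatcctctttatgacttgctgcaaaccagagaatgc
Il18: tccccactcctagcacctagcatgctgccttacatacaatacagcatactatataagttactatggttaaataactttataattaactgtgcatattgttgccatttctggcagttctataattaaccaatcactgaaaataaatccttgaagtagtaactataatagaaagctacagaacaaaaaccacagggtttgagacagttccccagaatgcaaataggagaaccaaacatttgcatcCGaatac
Mif: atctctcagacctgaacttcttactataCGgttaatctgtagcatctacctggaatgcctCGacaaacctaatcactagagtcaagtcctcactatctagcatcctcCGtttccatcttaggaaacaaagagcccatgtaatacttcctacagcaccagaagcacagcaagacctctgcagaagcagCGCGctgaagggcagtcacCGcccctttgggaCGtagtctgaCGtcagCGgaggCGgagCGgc

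RefSeq entries were matched for 8 of the 10 members. Among 32851 mouse promoters of this length the median held 6 CG. The Il18 window held 1, and 18.8% of promoters held as few or fewer, while the Il6ra window held 18 (80.3%), the Il1rapl1 window 6 (53.7%) and the Mif window 11 (66.5%). The windows of Il6st and Il1rap were the richest of the 8, with 26 (91.4%) and 30 (94.8%). The Il1rapl2 window held 14 (72.7%), and each of 2 Il33 start sites held 4 (44.4%). These counts describe the letters of the windows only, and no binding or methylation was measured here.

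The libraries held 138000 nuclei after nuclei with over 10% mitochondrial UMIs (unique molecular identifiers, each standing for 1 captured RNA molecule) were left out. A gate on marker genes placed 66961 of 71398 Hip nuclei and 59313 of 66602 PFC nuclei in cell types, among them 41818 and 38650 excitatory neurons, 5366 and 7215 interneurons, 6303 and 2981 oligodendrocytes, 1941 and 1674 oligodendrocyte precursor cells (OPC), 2157 and 1790 microglia, 6293 and 5106 astrocytes, and 783 and 980 endothelial cells. No member was used as a marker. Total UMIs of a library ranged from 49067853 to 63217083 in Hip, where the groups overlapped. The median UMIs of a Hip nucleus were 4593 to 5809.5 in GF libraries, below the 6132 to 7054 of SPF libraries and overlapping the 5444.5 to 7559.5 of CGF libraries. The summed UMIs of some Hip cell types were also lower in GF mice without overlap, with 1209251 to 1684072 in astrocytes against 1937559 to 2893123 in the other mice and 532733 to 656077 in OPC against 810801 to 1061713. In PFC they ranged from 59126586 to 71463928 in GF mice and from 20336250 to 26949210 in the other 6, so GF mice and depth cannot be told apart there. Mitochondrial UMIs were 0.645% to 1.10% in GF Hip against 0.0770% to 0.471% in the other Hip libraries, and 0.359% to 0.594% in GF PFC against 1.28% to 3.22%. The 153 pairs of libraries shared 6 to 29 cell barcodes, at most 0.362% of the smaller library.

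The level of a gene in a cell type is given in CPM, its UMIs scaled to the total of that type in a library. Levels of 1 gene are compared between types and groups, and not between genes, since no length was taken into account. A member was taken as too low in a type where the median library held fewer than 10 of its UMIs. That was so in 15 of 70 pairs of member and cell type in Hip and in 28 of 70 in PFC, where libraries of SPF and CGF mice were shallow. A pair under this limit could still pass the filter of the tests through a group where its level was high, and is named as such below where it was called. Il10ra was above the limit in microglia and excitatory neurons only, among these 7 types, and Il10rb in excitatory neurons and endothelial cells of both regions and in Hip microglia.

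**Figure D1:**
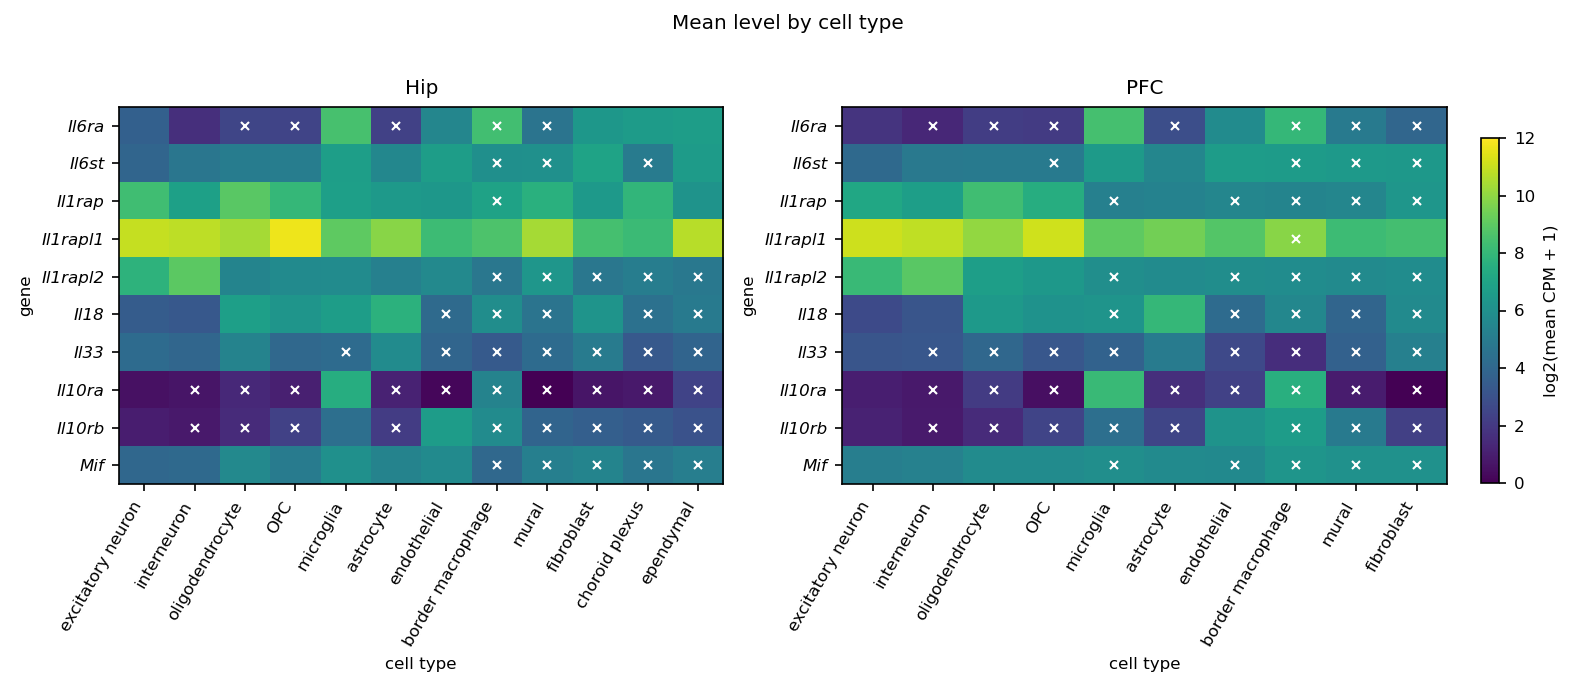
Mean level of each member by cell type in Hip and PFC, as log2(CPM + 1) over up to 9 libraries, with a white cross where the median library held fewer than 10 UMIs. Il6ra and Il10ra were highest in microglia, Il18 in astrocytes, Il1rapl1 in OPC and Il1rapl2 in interneurons.

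The order of cell types by level was tested between neighbours over the 9 mice with an exact two-sided sign-flip permutation test, adjusted over the neighbour pairs of a region. The smallest p this design allows is 0.00390625. In Hip, 27 of 45 neighbour pairs differed beyond their spread, and in PFC 19 of 32. Il6ra fell in steps from microglia: its Hip level was 362 ± 80.1 CPM in microglia (SD, n = 9), 44.1 ± 19.8 in endothelial cells and 11.9 ± 2.93 in excitatory neurons, and each of these steps passed. Il10ra reached 177 ± 41.4 CPM in Hip microglia and 283 ± 46.5 in PFC microglia, and fell to excitatory neurons in 1 step of 6.90 and 7.14 on the log2 scale. Il10rb was led by endothelial cells, at 99.3 ± 25.0 CPM in Hip, above microglia at 19.8 ± 8.16. The endothelial nuclei of Hip also carried mural markers, those of pericytes and smooth muscle, at a median of 2950 CPM a nucleus against 3059 in mural nuclei themselves, whereas in PFC the values were 534 and 5642. Endothelial levels of the members in Hip, and their differences from PFC, stand beside this, and its part in them was not tested. For Il10rb, mural nuclei of Hip held a median of 1 UMI a library, at 13.4 ± 17.7 CPM. Microglia and endothelial cells did not differ beyond their spread in Il6st (105 ± 40.6 and 102 ± 37.8 CPM in Hip), and both stood above astrocytes.

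Il1rap was highest in oligodendrocytes, at 483 ± 49.5 CPM in Hip, then in excitatory neurons (322 ± 66.8) and OPC (258 ± 52.0), each step past the test. Il1rapl1 was highest in OPC, at 3276 ± 422 CPM in Hip, above excitatory neurons (1965 ± 211) and interneurons (1806 ± 297), which did not differ beyond their spread. In PFC, OPC and excitatory neurons did not differ in Il1rapl1 beyond their spread, at 2238 ± 825 and 2200 ± 800 CPM. Il1rapl2 was led by interneurons, at 499 ± 82.2 CPM in Hip against 212 ± 47.3 in excitatory neurons. Il18 led in astrocytes (208 ± 26.7 CPM in Hip), above oligodendrocytes (110 ± 20.4) and microglia (102 ± 11), which did not differ beyond their spread. Hip microglia also carried astrocyte markers, at a median of 2519 CPM a nucleus against 5908 in astrocytes. Microglial Il18 stood at 47.0% of its astrocyte level, between the 55.6% of the astrocyte markers and the 9.67% of these markers without Slc1a3. Il33 also led in astrocytes, at 53.7 ± 10.1 CPM in Hip, above oligodendrocytes at 39.9 ± 9.09. For Mif, microglia, endothelial cells and oligodendrocytes could not be ordered in Hip, and no neighbour pair passed in PFC.

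Free RNA in the droplets can bring a gene into nuclei that do not express it, so low levels were set beside the share at which other genes of the likely source type were found in the same nuclei. In Hip astrocytes, Il1rapl1 stood at 46.1% of its excitatory neuron level (median of 9 libraries), while 8 abundant neuronal genes together stood at 20.8%, and Il1rapl1 was the higher in 9 of 9 libraries. In Hip microglia the same values were 28.6% and 23.9%, with Il1rapl1 the higher in 7 of 9, and in PFC microglia 32.4% and 27.1%, in 4 of 9. For Il1rapl2 the microglial share was 25.6% in Hip and 24.4% in PFC, above these genes in 4 and 3 of 9 libraries. How much of the neuronal RNA in glial nuclei was free RNA was not measured. Il18 in Hip excitatory neurons was at 4.64% of its astrocyte level, below the 6.69% of the astrocyte markers in 9 of 9 libraries. Within these neurons Il18 was not at 1 level, with 16.8 ± 2.82 CPM in granule neurons of the dentate gyrus and 7.64 ± 1.39 in CA1 pyramidal neurons, a difference of 1.04 on the log2 scale in 9 of 9 mice (exact sign-flip test, adjusted p = 0.00977). Granule nuclei were also shallower, with a median of 6629 UMIs against 9594.5 in CA1. A stricter gate, which drops nuclei with markers of another class, kept 14166 of 14872 granule nuclei and 14765 of 14886 CA1 nuclei. The part of free RNA in neuronal Il18, and in its difference between subtypes, was not tested. Il33 in the same neurons was at 27.4%, above the markers in 9 of 9. Il6ra in excitatory neurons stood at 3.69% of its microglial level in Hip, above the 1.02% of the microglial markers in 9 of 9 libraries, and at 0.666% in PFC, below the 0.909% of the markers in 9 of 9. Il10ra in Hip excitatory neurons, at 0.254%, was also below the markers in every library.

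Neurons were also split by subtype markers. Il1rap was highest in granule neurons of the dentate gyrus, at 680 ± 122 CPM (SD, n = 9), against 191 ± 38.8 in CA3 and 157 ± 37.1 in CA1 pyramidal neurons. Il6ra followed the same order, at 19.8 ± 2.63 CPM in granule neurons, 13.3 ± 4.54 in CA3 and 6.12 ± 2.16 in CA1, with both steps past the exact sign-flip test. Il1rapl2 ran the other way, at 97.2 ± 32.8 CPM in granule neurons and 280 ± 79.1 in CA1. Parvalbumin (Pvalb) interneurons held the highest Il1rapl2 level, 1612 ± 412 CPM in Hip and 1560 ± 369 in PFC, although a Hip library held only 8 to 49 of these nuclei. Il1rapl1 was also high in Pvalb interneurons (3284 ± 813 CPM) and low in somatostatin (Sst) interneurons (1168 ± 177) of Hip, and in PFC it was highest in upper layer neurons at 3088 ± 1098. Among neuron subtypes, 31 of 70 pairs of member and subtype in Hip and 56 of 100 in PFC were too low.

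**Figure D2:**
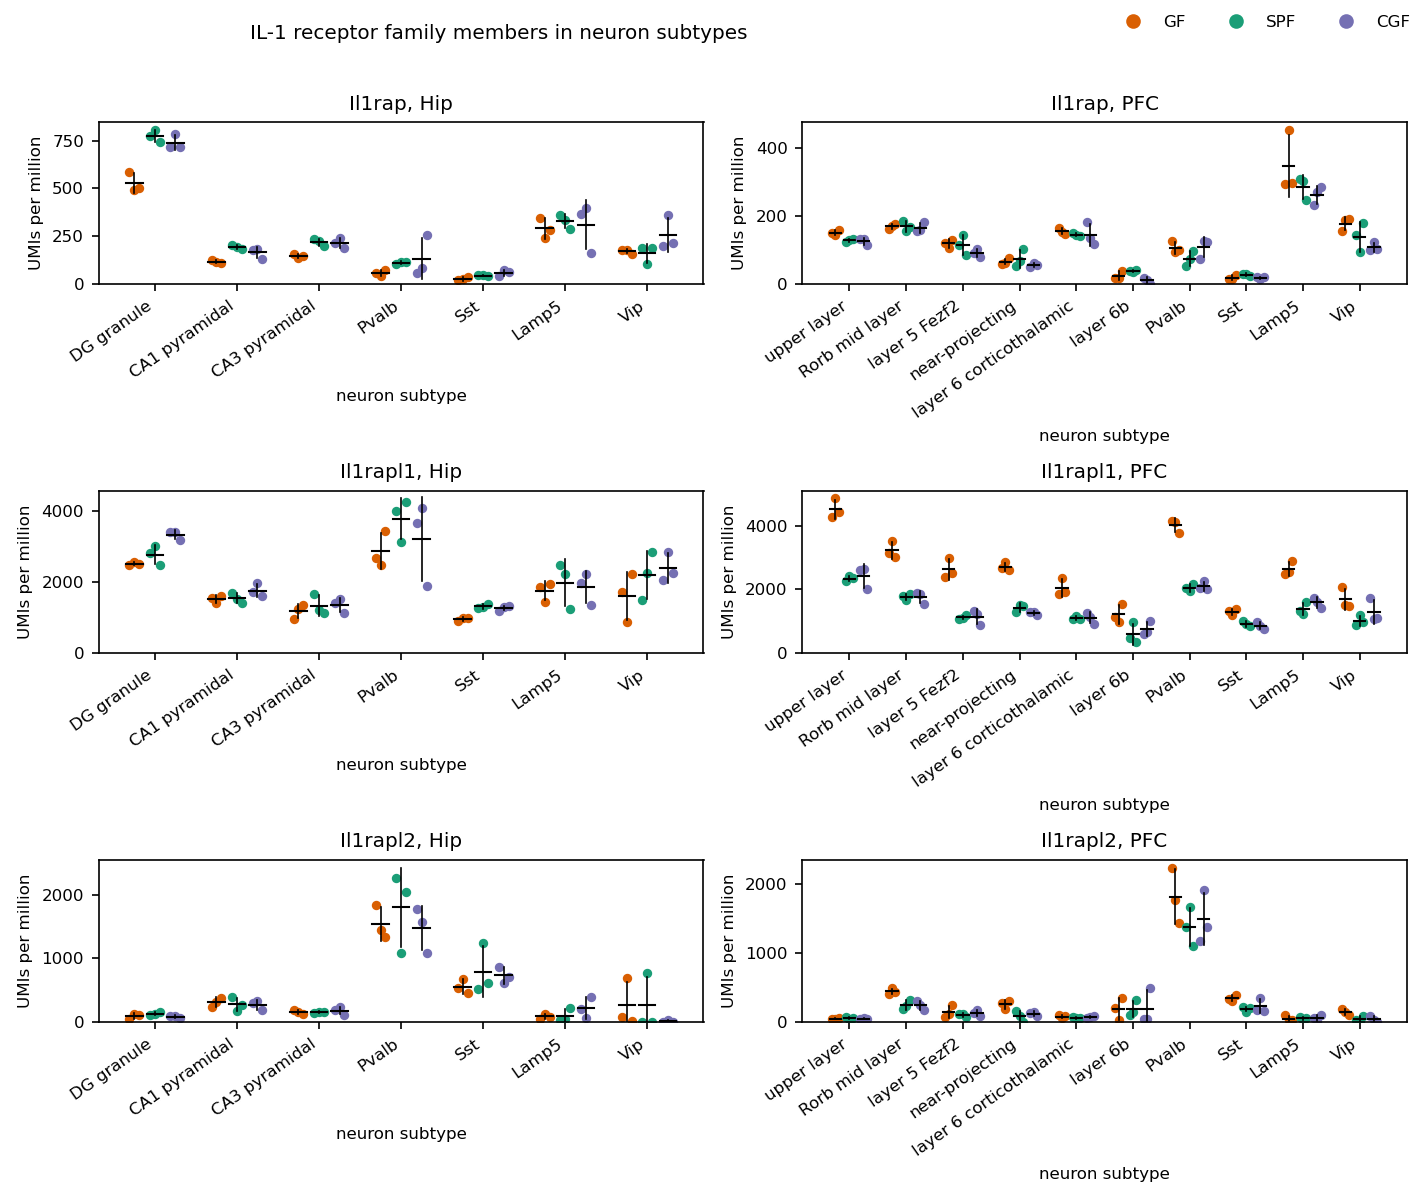
Levels of Il1rap, Il1rapl1 and Il1rapl2 in CPM by neuron subtype of Hip and PFC, 1 point per library coloured by group, with the mean and SD over the libraries of a group. Il1rap was highest in dentate granule neurons, and Il1rapl2 in Pvalb interneurons of both regions.

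The groups were compared in 7 cell types per region with edgeR's quasi-likelihood test on UMIs summed per mouse, so p-values measure the spread between mice. Between GF and SPF mice in Hip, 30 of 56 tested pairs of member and cell type passed an adjusted p of 0.05, 11 higher and 19 lower in GF mice. That is 53.6%, against 32.1% of all gene and cell type pairs tested. The median log2 change of the members was -0.32, while the median of all genes lay between -0.03 and 0.03 in each type. Between GF and CGF mice in Hip, 28 of 56 pairs passed (50.0%, against 33.0% of all pairs), 9 higher and 19 lower in GF mice. In PFC, 21 of 48 pairs passed between GF and SPF mice (43.8%, against 48.7% of all pairs), 16 higher and 5 lower, and 22 of 48 between GF and CGF mice (45.8%, against 48.2%), 18 higher and 4 lower. The share in PFC was near that of all genes. In PFC 48 pairs were tested and 42 were above the limit on UMIs, so some tested pairs were under it. Among these, Mif in microglia and endothelial cells and Il33 in interneurons were called higher in GF than in SPF mice. Such pairs could pass the filter through a high level in GF mice. The PFC split into higher and lower is therefore not read as a direction of the members as a set. Both GF comparisons of a region use the same GF libraries and are not independent of each other.

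Between CGF and SPF mice no member passed in any cell type in the main fit, while a pair passed in Hip without a filter on low counts. With edgeR and with DESeq2 the count was 0 of 56 in Hip and 0 of 48 in PFC, where 6 and 2 pairs had an unadjusted p under 0.05. Of all gene and cell type pairs, 0.265% passed in Hip and 0.191% in PFC. In the main fit a difference between CGF and SPF mice in these genes was not detectable with 3 mice a group at this depth. The results below are those of GF mice against each of the other groups.

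**Figure D3:**
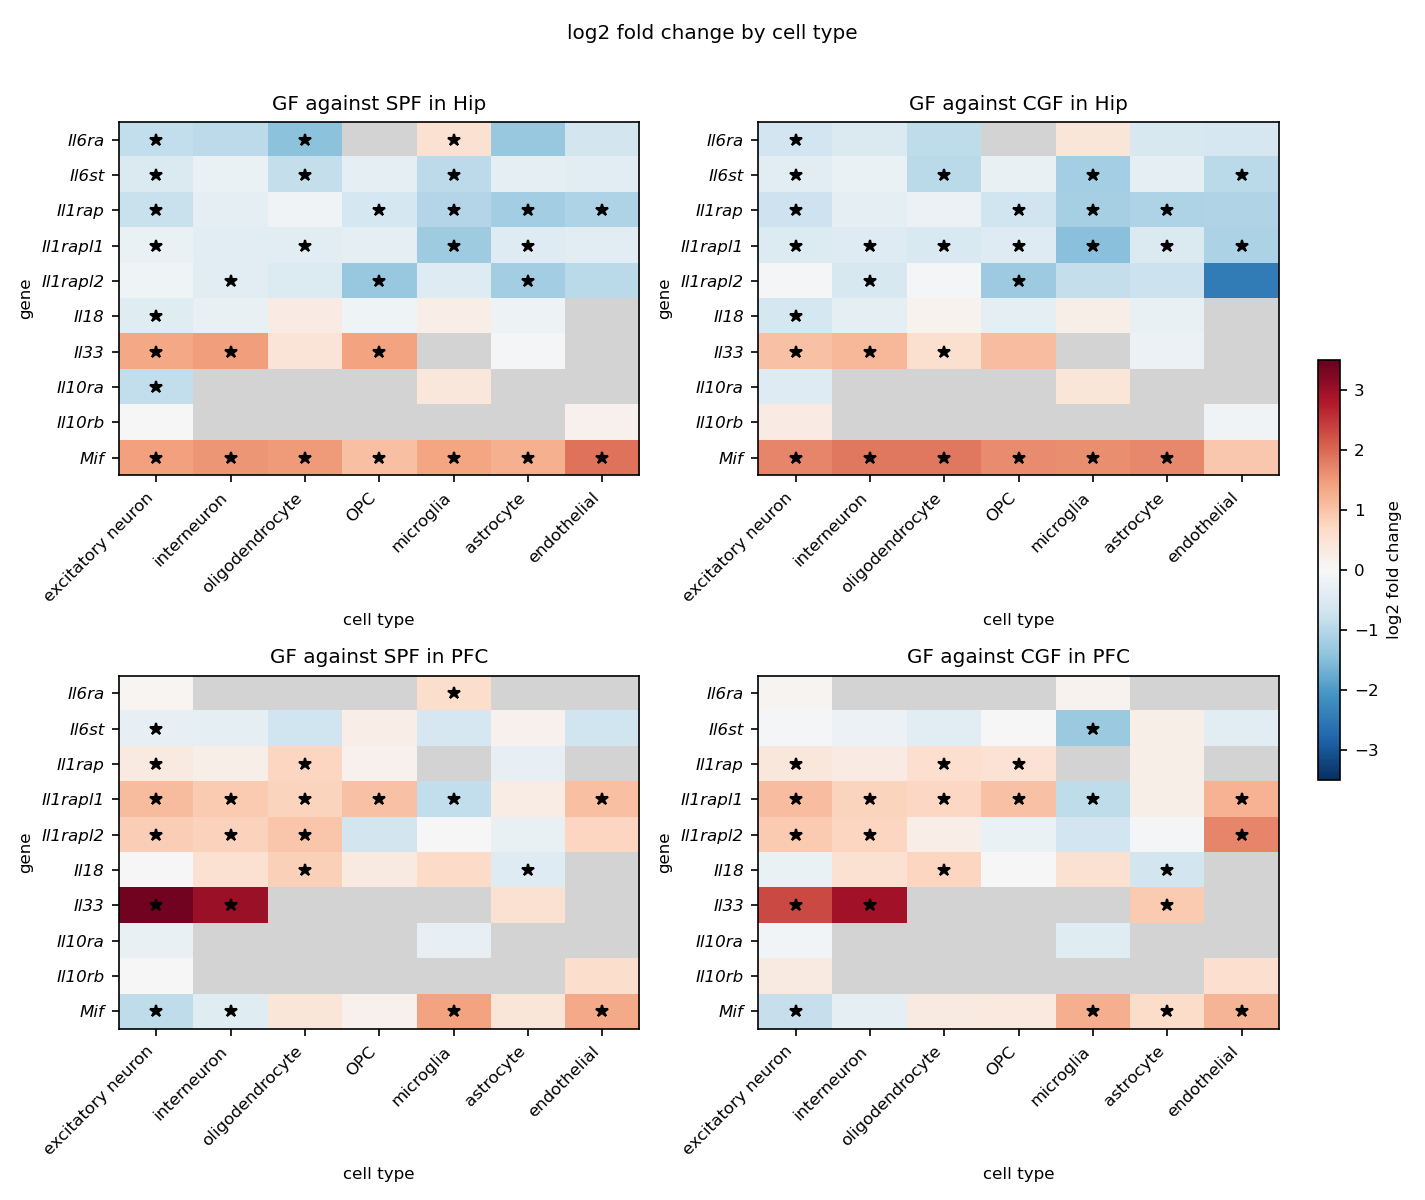
Log2 fold change of each member between GF and SPF mice and between GF and CGF mice, by cell type and region, with a star at an adjusted p under 0.05 (edgeR) and grey where the gene was not tested. Mif was higher in GF than in SPF mice in all 7 Hip cell types and than in CGF mice in 6, and Il1rapl1 was lower in Hip, a direction that turned in most types once the trend on gene length was removed, and higher in PFC outside microglia and astrocytes.

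Measures of the whole library moved with the groups. In Hip excitatory neurons, genes spanning under 2 kb had a median log2 change of 0.84 between GF and SPF mice (336 of 669 higher and 23 lower in GF mice past the test), and genes over 500 kb had -0.49 (8 of 232 higher and 168 lower). In Hip microglia these medians were 1.17 and -0.95. Mif belongs to the shortest class and Il1rapl1 and Il1rapl2 to the longest. In PFC excitatory neurons, the medians were 0.14 and 0.28, with 101 of the longest genes higher and 25 lower. The 8 abundant neuronal genes summed to 3111 to 4449 CPM in Hip microglia of GF mice, against 7207 to 8517 and 7615 to 7982 in the SPF and CGF groups. In PFC microglia they summed to 3442 to 5013 CPM in GF mice, against 4875 to 5980 in the other mice. The part of gene length, free RNA, depth and mitochondrial UMIs in the results was not tested as a cause, but each result was recomputed with the trend on length and GC content of every library removed, and values for calls that changed are given below for the main results. Of the calls between regions in SPF and CGF mice, 6 of 24 and 5 of 29 were lost and another 3 and 4 turned in sign in that setting, run with the mouse as a block, and none of 13 changed so in GF mice.

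Between GF and SPF mice in Hip, the IL-6 binding chain was opposite in direction in excitatory neurons and microglia. Il6ra was at 9.05, 8.45 and 9.17 CPM in Hip excitatory neurons of GF mice, 12.1, 15.2 and 15.8 in SPF mice and 10.4, 11.2 and 15.4 in CGF mice. GF mice were lower than every other mouse. The log2 change was -0.85 ± 0.15 (SE) against SPF mice (adjusted p = 0.00146) and -0.67 against CGF mice (adjusted p = 0.00498), and both calls were kept in each of the 16 alternatives run. In PFC excitatory neurons Il6ra was at 2.05 to 2.76 CPM in all 9 mice, with a log2 change of 0.07. The difference between regions in the GF change was -0.98. Across groups, Hip neurons held more Il6ra than PFC neurons, by 1.74 ± 0.15 on the log2 scale in GF mice (adjusted p = 1.63e-07), 2.72 ± 0.17 in SPF mice (adjusted p = 2.4e-10) and 2.55 ± 0.17 in CGF mice (adjusted p = 4.66e-10). Here 11.0%, 41.6% and 43.1% of all gene and cell type pairs differed between the regions in GF, SPF and CGF mice, and of the 58 member pairs 13 (22.4%), 24 (41.4%) and 29 (50.0%) did.

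In microglia, the type with the highest Il6ra, the level was 356, 458 and 518 CPM in Hip of GF mice, 328, 325 and 278 in SPF mice and 371, 272 and 348 in CGF mice. GF mice were higher than SPF mice without overlap, while 1 CGF mouse lay within the GF range. The log2 change against SPF mice was 0.54 ± 0.16 (adjusted p = 0.0187). This call was lost, with a log2 change of 0.51, 0.41 and 0.45, without GF mouse 6, GF mouse 7 or SPF mouse 32, and also without a filter on low counts or at equal depth. Against CGF mice it was 0.42 ± 0.17 (adjusted p = 0.0649). In PFC microglia, Il6ra was at 405, 463 and 415 CPM in GF mice and 237, 298 and 254 in SPF mice, with no overlap (log2 change 0.62 ± 0.20, adjusted p = 0.0151). It was 0.54 and no longer past the test without SPF mouse 30. CGF mice, at 326, 411 and 376 CPM, overlapped GF mice (log2 change 0.13 ± 0.19, adjusted p = 0.634). The region did not change microglial Il6ra past the test in any group. In Hip oligodendrocytes Il6ra, which was under the limit of 10 UMIs, was lower in GF mice by an edgeR adjusted p of 0.0476, from 2 to 22 UMIs a library, and the call was lost in 8 of 11 alternatives.

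The shared chain Il6st was lower in GF mice past the test in 3 of 7 Hip types against SPF mice and in 4 of 7 against CGF mice. In Hip microglia it was at 66.9, 61.7 and 52.5 CPM in GF mice, 122, 123 and 103 in SPF mice and 167, 156 and 95.4 in CGF mice. Every GF mouse lay below every other mouse. The log2 change was -0.92 ± 0.23 against SPF mice (adjusted p = 0.00602) and -1.19 ± 0.24 against CGF mice (adjusted p = 0.000797), so against SPF mice the binding chain and the signalling chain of the IL-6 receptor moved in opposite directions in these nuclei, the former with the limits given above. Hip oligodendrocytes showed the same direction for Il6st, with 20.5, 23.5 and 16.8 CPM in GF mice against 35.3 to 40.1 in the SPF group and 34.3 to 41.8 in the CGF group (log2 changes -0.83 ± 0.19 and -0.93 ± 0.19, adjusted p = 0.00408 and 0.00173). Excitatory neurons changed less, by -0.52 ± 0.09 against SPF mice (adjusted p = 0.00129). Interneurons, OPC, astrocytes and endothelial cells gave -0.24 to -0.37 against SPF mice and did not pass. Endothelial cells passed against CGF mice (log2 change -0.95, adjusted p = 0.0384), a call lost in 9 of 16 alternatives. These microglial and oligodendrocyte calls, and that of neurons against SPF mice, were kept in all 16 alternatives, including removal of the length trend.

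In PFC, Il6st was at 61.7, 61.3 and 49.5 CPM in microglia of GF mice, 108, 121 and 34.3 in SPF mice and 150, 111 and 120 in CGF mice. SPF mouse 32 lay below all GF mice, and the change against SPF mice did not pass (log2 change -0.59, adjusted p = 0.221). The change against CGF mice was -1.30 ± 0.33 (adjusted p = 0.00267), and without CGF mouse 17 it was -1.13 and did not pass. PFC microglia held only 101411, 90639 and 145868 UMIs of all genes in SPF mice and 186868, 90074 and 66536 in CGF mice. The Il6st levels of these libraries, that of SPF mouse 32 among them, therefore rest on few UMIs. In PFC excitatory neurons Il6st was lower in GF mice by -0.30 ± 0.12 (adjusted p = 0.048), a call lost in 8 of 16 alternatives. This was the 1 type of 7 in PFC that passed against SPF mice, where the other types gave -0.70 to 0.23.

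The IL-10 receptor chains passed no test between groups in the types where they were best measured. In Hip microglia, Il10ra was at 222, 249 and 163 CPM in GF mice, 206, 148 and 131 in SPF mice and 186, 144 and 142 in CGF mice, and the groups overlapped (log2 change against SPF mice 0.41 ± 0.20, adjusted p = 0.135). In PFC microglia it was at 243, 271 and 223 CPM in GF mice, 316, 320 and 233 in SPF mice and 310, 266 and 361 in CGF mice, again with overlap (log2 change -0.30, adjusted p = 0.259). Between regions, Il10ra was lower in Hip than in PFC microglia by -0.90 ± 0.22 in SPF mice (adjusted p = 0.00371) and -1.06 ± 0.23 in CGF mice (adjusted p = 0.000918), while GF mice gave -0.18 (adjusted p = 0.887). The SPF value was -0.78 and did not pass without SPF mouse 31. The region difference of GF and of SPF mice themselves differed by 0.72 ± 0.29 (adjusted p = 0.113), which did not pass. In SPF and CGF mice the PFC libraries were also shallower than those of Hip, with more mitochondrial UMIs. There 41.6% and 43.1% of all gene and cell type pairs differed between regions, against 11.0% in GF mice. Region and library depth cannot be told apart in these 2 groups, which holds for the other members as well. Il10ra in Hip excitatory neurons rested on 13 to 40 UMIs a library, stood below the share of the microglial markers as given above, and passed against SPF mice (adjusted p = 0.0489) in 5 of 16 alternatives. Il10rb passed in no comparison. Its Hip endothelial level was 110, 76.6 and 93.4 CPM in GF mice, 86.5, 131 and 59.7 in SPF mice and 128, 122 and 85.4 in CGF mice.

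**Figure D4:**
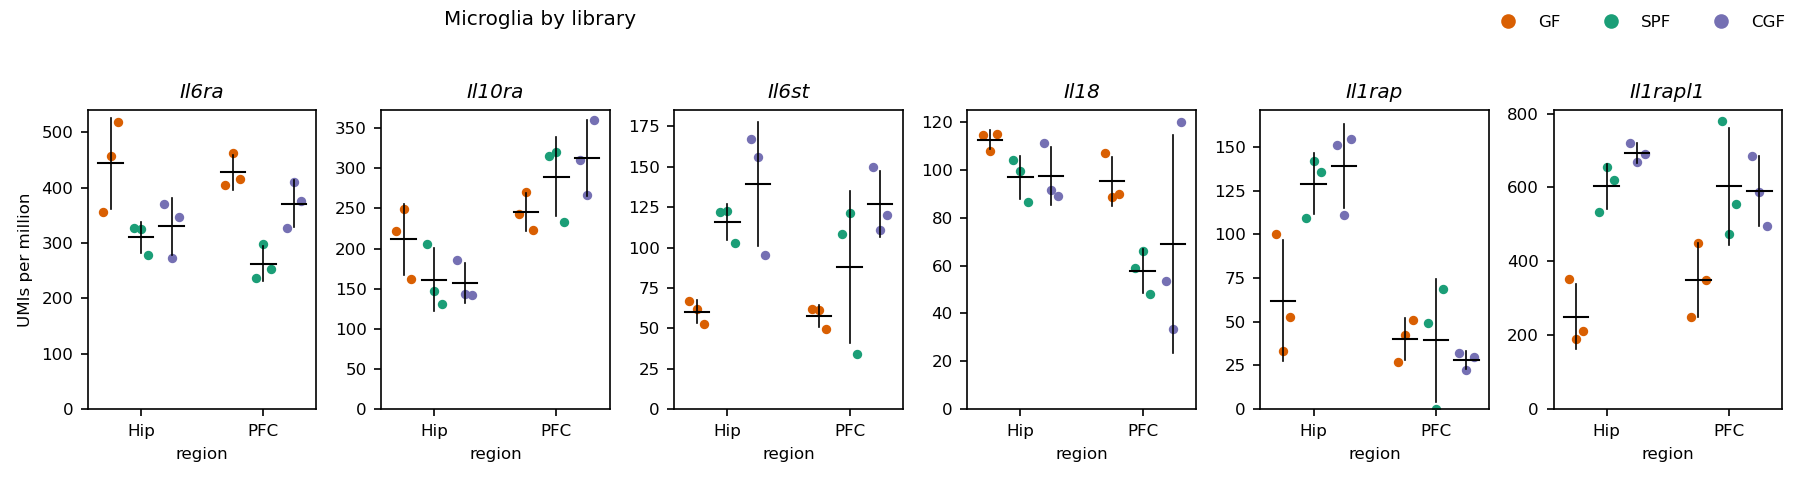
Levels of Il6ra, Il10ra, Il6st, Il18, Il1rap and Il1rapl1 in microglia in CPM, by region and group, 1 point per library with the mean and SD of 3 mice. GF mice lay above SPF mice for Il6ra and below them for Il6st, Il1rap and Il1rapl1 in Hip, while Il10ra overlapped between groups.

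The IL-1 receptor accessory protein gene Il1rap was lower in GF mice in Hip, past the test in 5 of 7 types against SPF mice and in 4 of 7 against CGF mice. Astrocytes showed the widest gap to SPF mice, with 43.8, 51.3 and 46.3 CPM in GF mice, 102, 116 and 117 in SPF mice and 75.0, 98.2 and 122 in CGF mice. No GF mouse overlapped another group. The log2 change was -1.21 ± 0.17 against SPF mice (adjusted p = 8.27e-05) and -1.09 against CGF mice, where microglia gave the lower value of -1.15. Without the length and GC trend it was still past the test against SPF mice, at -0.81. Neuronal RNA in astrocytes moved the same way: the 8 abundant neuronal genes summed to 3544 to 4394 CPM in GF mice, against 6265 to 7758 in the SPF group and 6125 to 7831 in the CGF group, and 6 of the 8 were lower against SPF mice past the test (median log2 change -0.65; 32.3% of all genes tested in astrocytes passed). Astrocyte Il1rap stood at 27.9% of its excitatory neuron level and these genes at 20.8%, with Il1rap the higher in 9 of 9 libraries, and the part of free RNA in its change was not tested. Excitatory neurons held 283, 226 and 222 CPM in GF mice, 338, 417 and 361 in SPF mice and 323, 351 and 381 in CGF mice, a log2 change of -0.77 ± 0.12 against SPF mice (adjusted p = 0.000748) that was -0.37 with the trend removed and still past the test. OPC and microglia were also lower, by -0.60 ± 0.14 and -1.02 ± 0.27 (adjusted p = 0.0041 and 0.00765), but both calls were lost with the trend removed. The microglial value was -0.73 and no longer past the test without GF mouse 6. Oligodendrocytes, which held the highest level of the 7 types, gave 421 to 471 CPM in GF mice against 457 to 534 in SPF mice, and the groups overlapped (log2 change -0.12, adjusted p = 0.483). Endothelial cells passed against SPF mice (log2 change -1.08, adjusted p = 0.0335), a call lost in 8 of 16 alternatives.

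In PFC, Il1rap was higher in GF mice past the test in 2 of 5 types against SPF mice and in 3 of 5 against CGF mice. Astrocytes did not pass, at -0.30 against SPF mice (adjusted p = 0.276). Il1rap in oligodendrocytes was at 400, 459 and 417 CPM in GF mice, 252, 250 and 264 in SPF mice and 291, 334 and 196 in CGF mice. GF mice lay above all others, by 0.74 ± 0.17 on the log2 scale against SPF mice (adjusted p = 0.00118) and 0.60 against CGF mice. The call against CGF mice was lost without CGF mouse 19. Excitatory neurons were at 150, 152 and 158 CPM in GF mice and at 125 to 139 in the other 6 mice, again without overlap (log2 change 0.32 ± 0.09 against SPF mice, adjusted p = 0.00758). The regions differed in the GF change of Il1rap by -1.14 in excitatory neurons, -0.86 in oligodendrocytes, -0.75 in OPC and -0.84 in astrocytes, 4 of the 19 member pairs of 58 (32.8%) that passed this test, against 27.7% of all pairs. With the length and GC trend removed and the mouse as a block, 11 of the 19 were lost. For Il1rap, excitatory neurons still passed in that setting, at -0.77, while oligodendrocytes (-0.49), OPC (-0.36) and astrocytes (-0.54) did not. In SPF mice, Hip stood above PFC for Il1rap by 1.68 ± 0.11 in excitatory neurons (adjusted p = 4.58e-10) and 1.23 ± 0.19 in astrocytes (adjusted p = 9.69e-06). In CGF mice all 7 types passed as higher in Hip, but microglia and endothelial cells were under the limit on UMIs in PFC. Their PFC libraries of CGF mice held 6, 2 and 2 UMIs in microglia and 5, 7 and 4 in endothelial cells. Both could pass the filter through the Hip libraries, so a direction is not read from them. In GF mice only excitatory neurons passed, by 0.54.

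Il1rapl1, the synaptic relative of the accessory protein, was higher in GF mice in most cell types of PFC. In PFC excitatory neurons it was at 2950, 3596 and 3133 CPM in GF mice, 1588, 1721 and 1656 in SPF mice and 1932, 1816 and 1409 in CGF mice. Every GF mouse lay above every other mouse. The log2 change was 1.11 ± 0.15 against SPF mice (adjusted p = 4.65e-05). Interneurons rose by 0.93 ± 0.13 (adjusted p = 3.29e-05), OPC by 1.04 ± 0.16 (adjusted p = 1.26e-05), and oligodendrocytes and endothelial cells by 0.79 and 1.07. Astrocytes did not pass (0.27). The neuronal, OPC and oligodendrocyte calls were kept in all 16 alternatives, and the endothelial one was lost under a stricter gate. In the same libraries the 8 abundant neuronal genes summed to 25978 to 29406 CPM in GF excitatory neurons, against 14962 to 18929 in the other mice. In endothelial nuclei of PFC these genes summed to 5170 to 6876 CPM in GF mice against 2431 to 4199 in the other mice, and 4 of the 8 were higher and 1 lower in GF than in SPF mice past the test (38.2% of all genes tested in that type passed). Endothelial Il1rapl1 stood at 21.5% of its excitatory neuron level and these genes at 19.9%, with Il1rapl1 the higher in 6 of 9 libraries, and the part of neuronal RNA in its endothelial level was not tested. The sum also moved with Il1rapl1 in PFC interneurons, at 19707 to 20832 CPM in GF mice against 13377 to 15935 in the other mice, and in OPC, at 8354 to 10518 against 5505 to 8108.

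In Hip, Il1rapl1 was at 1796, 1733 and 1860 CPM in GF excitatory neurons, 1977, 2015 and 1705 in SPF mice and 2106, 2334 and 2160 in CGF mice. SPF and GF mice overlapped, and the change of -0.24 ± 0.09 (adjusted p = 0.0446) was lost in 8 alternatives and became 0.34 with the length and GC trend removed. Against CGF mice all 7 types passed, from -0.46 to -1.47, but 5 of these turned positive with the trend removed, and the other 2 were lost. Microglia gave the largest value: 351, 190 and 210 CPM in GF mice, 535, 654 and 620 in SPF mice and 721, 668 and 691 in CGF mice. Their log2 change against SPF mice, -1.24 ± 0.18 (adjusted p = 5.56e-05), was -0.07 with the trend removed. In PFC microglia the change against SPF mice was -0.87 ± 0.21 (adjusted p = 0.00179), also lost with the trend removed. The 8 neuronal genes were also lower in GF microglia of Hip, with the values given above, and their part in the Il1rapl1 change was not tested. The GF change differed between regions by -1.41 in excitatory neurons, -1.32 in interneurons, -1.16 in oligodendrocytes, -1.33 in OPC, -0.66 in astrocytes and -1.45 in endothelial cells. With the trend removed and the mouse as a block, excitatory neurons (-0.40) and OPC (-0.52) still passed, and the other 4 types, at -0.22 to -0.46, did not.

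Il1rapl2 followed Il1rapl1 in PFC neurons. In PFC it was higher in GF mice past the test in 3 of 7 types against SPF mice and in 3 of 7 against CGF mice. The call in oligodendrocytes against SPF mice turned in sign under the stricter gate. In PFC interneurons, where it was most abundant, it was at 763, 626 and 610 CPM in GF mice, 389, 450 and 351 in SPF mice and 353, 537 and 336 in CGF mice, with GF mice above all others (log2 change 0.81 ± 0.17 against SPF mice, adjusted p = 0.000999). Pvalb nuclei, which held the most Il1rapl2, were 121 of 1014, 177 of 1035 and 175 of 1225 interneurons in GF mice. They were 38 of 573, 66 of 591 and 59 of 655 in SPF mice, and 68 of 855, 78 of 662 and 36 of 605 in CGF mice. The part of this mix in the change was not tested. PFC excitatory neurons gave 394, 366 and 383 CPM in GF mice against 178 to 265 in the other 6 (log2 change 0.85 ± 0.15, adjusted p = 0.000411). In Hip interneurons it was at 384, 433 and 468 CPM in GF mice, 615, 436 and 490 in SPF mice and 629, 533 and 500 in CGF mice. The change of -0.39 ± 0.14 against SPF mice (adjusted p = 0.0403) was lost without GF mouse 5, GF mouse 6, SPF mouse 30 or CGF mouse 18 and became 0.14 with the trend removed. Hip excitatory neurons did not pass (-0.15). Hip astrocytes and OPC passed, by -1.21 and -1.33, but there the Il1rapl2 share of its neuronal level lay below that of the 8 neuronal genes in 7 of 9 libraries each, and neither call was kept with the trend removed.

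The cytokine gene Il18 was lower in PFC astrocytes of GF mice. It was at 186, 181 and 205 CPM in GF mice, 331, 234 and 242 in SPF mice and 263, 276 and 356 in CGF mice, and no GF mouse reached another group. The log2 change was -0.46 ± 0.15 against SPF mice (adjusted p = 0.0153) and -0.64 ± 0.15 against CGF mice (adjusted p = 0.00101). Without SPF mouse 30 the former was -0.33 and did not pass, while the latter was kept in all 16 alternatives. In Hip astrocytes, at 223, 171 and 169 CPM in GF mice against 199 to 230 in the SPF and 189 to 235 in the CGF group, the groups overlapped and no test passed. PFC oligodendrocytes went the other way, with 132, 85.7 and 131 CPM in GF mice against 60.4 to 76.7 in SPF mice and 59.7 to 95.6 in CGF mice, which overlapped GF mice (log2 change 0.83 ± 0.23 against SPF mice, adjusted p = 0.00581). Hip microglia gave 108 to 115 CPM in GF, 86.7 to 104 CPM in the SPF group and 89.1 to 111 in the CGF group, a log2 change of 0.24 against SPF mice (adjusted p = 0.394). In Hip excitatory neurons Il18 was low, at 8.70, 8.71 and 8.54 CPM in GF mice, 9.24 to 12.4 in SPF mice and 9.99 to 13.7 in CGF mice, and GF mice lay below all others. They differed by -0.42 ± 0.15 on the log2 scale from SPF mice (adjusted p = 0.0399), lost in 9 of 16 alternatives, and by -0.60 ± 0.15 from CGF mice (adjusted p = 0.0078), kept in all 16. As given above, neuronal Il18 stood below the share of the astrocyte markers in the same nuclei.

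Il33 was higher in excitatory neurons of GF mice in both regions. In PFC excitatory neurons it was at 17.4, 11.6 and 24.4 CPM in GF mice, 2.62, 1.15 and 2.00 in SPF mice and 2.40, 4.71 and 5.06 in CGF mice. The lowest GF value was above the highest of the other mice. The log2 change was 3.38 ± 0.36 against SPF mice (adjusted p = 6.36e-06) and 2.30 against CGF mice, and the first was the largest change of any member called between groups. PFC interneurons gave 16.8, 14.6 and 29.5 CPM in GF mice against 0.812 to 5.63 in the other 6 (log2 change 3.02 ± 0.47 against SPF mice, adjusted p = 6.38e-05). This interneuron pair was under the limit of 10 UMIs and rests on few counts, with 2 to 11 in the other 6 libraries against 105 to 255 in the deeper GF libraries. It could pass the filter through the GF libraries, where its level was high, and a direction is not read from it. In Hip excitatory neurons the values were 27.1, 21.4 and 40.3 CPM in GF mice, 8.54, 11.0 and 11.7 in SPF mice and 16.8, 10.2 and 11.2 in CGF mice, a log2 change of 1.35 ± 0.25 against SPF mice (adjusted p = 0.00195). These excitatory neuron calls against SPF mice were kept in all 16 alternatives. The change differed between regions by -2.08 in excitatory neurons.

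Astrocytes, the type with the most Il33, overlapped between groups in Hip, at 43.0 to 55.8 CPM in GF mice, 42.1 to 64.5 in the SPF group and 41.0 to 67.8 in the CGF group (log2 change against SPF mice -0.03, adjusted p = 0.929). In PFC their change was 0.53 against SPF mice (adjusted p = 0.16) and 0.90 against CGF mice (adjusted p = 0.0164), the latter lost without CGF mouse 17, GF mouse 6 or GF mouse 7. GF mouse 7 had the highest Il33 level of the Hip libraries in excitatory neurons (40.3 CPM), interneurons (38.6), OPC (36.6) and microglia (42.5), values close to each other, and also the highest in excitatory neurons and interneurons of PFC. Microglia held fewer than 10 UMIs of Il33 in the median library. In the Hip library of GF mouse 7, astrocytes held 55.8 and oligodendrocytes 54.8 CPM. Hip OPC passed against SPF mice (log2 change 1.42 ± 0.44, adjusted p = 0.0285), but the value was 1.06 without GF mouse 7 and 1.01 without SPF mouse 30, and neither passed. A like level in several types is also what free RNA would give, and its part was not tested.

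Mif was higher in GF than in SPF mice in all 7 tested Hip cell types, and than in CGF mice in 6. In excitatory neurons it was at 24.8, 30.6 and 30.1 CPM in GF mice, 8.25, 7.56 and 12.6 in SPF mice and 5.21, 6.43 and 11.2 in CGF mice. In microglia it was at 81.3, 134 and 120 CPM in GF mice, 53.0, 30.2 and 45.8 in SPF mice and 23.9, 42.1 and 40.3 in CGF mice. The GF mice stood above all others in both types. Against SPF mice the log2 changes were 1.43 ± 0.26 in excitatory neurons (adjusted p = 0.0017), 1.55 ± 0.31 in interneurons (adjusted p = 0.00285), 1.48 ± 0.20 in oligodendrocytes (adjusted p = 0.000106) and 1.38 ± 0.26 in microglia (adjusted p = 0.000491). OPC, astrocytes and endothelial cells rose by 1.05, 1.25 and 1.91. Endothelial cells did not pass against CGF mice (log2 change 0.94 ± 0.38, adjusted p = 0.138), with 61.2, 102 and 91.5 CPM in GF mice, 7.86, 32.2 and 35.2 in SPF mice and 37.3, 55.2 and 56.9 in CGF mice. With the trend on length and GC content removed, excitatory neurons (0.71) and oligodendrocytes (0.57) still passed against SPF mice, and the other 5 types did not, with 0.60 in interneurons, 0.06 in OPC, 0.38 in microglia, 0.31 in astrocytes and 1.01 in endothelial cells. Without GF mouse 6 or SPF mouse 30, the OPC change of 0.91 in either case did not pass.

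In PFC, Mif passed as lower in GF than in SPF mice in 2 of 7 types, both neuronal, and as higher in 2, both under the limit of 10 UMIs. Against CGF mice 1 type was lower and 3 higher. Excitatory neurons held 22.3, 17.1 and 22.0 CPM in GF mice, 47.8, 43.3 and 34.6 in SPF mice and 40.7, 35.4 and 45.3 in CGF mice. GF mice lay below all others (log2 change -0.89 ± 0.13 against SPF mice, adjusted p = 6.63e-05, and -0.81 against CGF mice), and both calls were kept in all 16 alternatives. Interneurons were also lower against SPF mice, at 31.2, 23.5 and 35.8 CPM in GF mice and 49.1, 47.9 and 32.5 in SPF mice, which overlapped (log2 change -0.44 ± 0.18, adjusted p = 0.0472). This call was lost in 8 of 16 alternatives, and interneurons did not pass against CGF mice (-0.34). PFC microglia held 116, 116 and 98.9 CPM in GF mice against 19.7, 55.2 and 41.1 in SPF mice, which rest on 2, 5 and 6 UMIs (log2 change 1.42 ± 0.42, adjusted p = 0.00874). This was 1.12 and not past the test without SPF mouse 30. Endothelial cells rose by 1.32 ± 0.35 (adjusted p = 0.00458), a call lost with the trend removed, from 3 to 8 UMIs a library in SPF mice. Both types held 23 to 66 UMIs in the GF libraries, which were deeper and where their level was high. They could pass the filter through these libraries, so a direction is not read from them. Astrocytes passed against CGF mice only (log2 change 0.64, adjusted p = 0.0192), a call lost without CGF mouse 18 or GF mouse 5. The GF change of Mif differed between Hip and PFC by 2.26 in excitatory neurons and 1.99 in interneurons, both kept in all 16 alternatives, and by 1.06 in oligodendrocytes and 0.90 in astrocytes, lost in 10 and 7, with 0.19 and 0.20 once the trend was removed with the mouse as a block. Between regions, Mif was lower in Hip than in PFC neurons by -1.92 in excitatory neurons and -1.94 in interneurons of SPF mice, and by -2.15 and -2.14 in CGF mice, while GF mice gave 0.34 in excitatory neurons (adjusted p = 0.222).

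**Figure D5:**
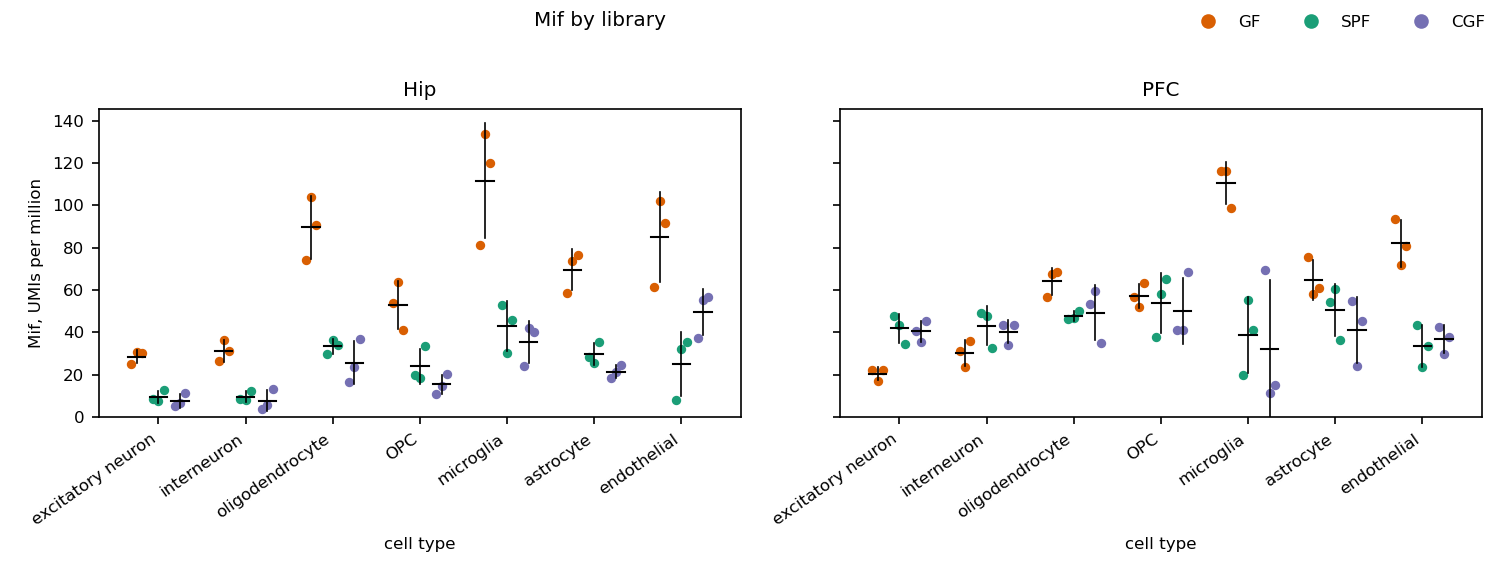
Mif level in CPM by cell type, region and group, 1 point per library with the mean and SD of 3 mice. In Hip the GF mice lay above SPF mice in all 7 types. In PFC they lay below the other groups in excitatory neurons, while interneurons overlapped. Microglia and endothelial cells of PFC held few UMIs in SPF mice, and no direction is read from them.

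Other members of these pathways were counted in a list of 60 genes. In Hip, 57 of its 198 tested pairs of gene and cell type passed between GF and SPF mice, 26 higher and 31 lower in GF mice. That is 28.8%, against 32.1% of all pairs. In PFC 70 of 154 passed (45.5%, against 48.7% of all pairs), 38 higher and 32 lower, so both shares were near those of all genes. Between CGF and SPF mice the count was 0 in both regions with edgeR, with 12 and 14 pairs at an unadjusted p under 0.05. Ddt, a short paralog of Mif that encodes D-dopachrome tautomerase, rose with Mif in Hip, by 1.70 ± 0.31 in excitatory neurons, 1.42 ± 0.23 in astrocytes and 1.19 in microglia. In PFC excitatory neurons Ddt rose by 0.60 while Mif fell by 0.89 on the log2 scale. Short genes as a class were higher in Hip excitatory neurons and microglia of GF mice, as given above. No value of Ddt with the length trend removed is given, and the part of gene length in its change was not tested. Of 18 named partners, group changes are given for Ddt and Ptprd only, and they do not stand for the others. Ptprd, whose product binds IL1RAPL1, is itself long and rose with Il1rapl1 in PFC excitatory neurons, by 0.98 ± 0.16, and in Hip microglia it was lower by -1.30 ± 0.24 (adjusted p = 0.000449). Its Hip level was 1196 ± 503 CPM in microglia and 5394 ± 937 in excitatory neurons, beside the 23.9% at which the 8 neuronal genes stood in Hip microglia. Those genes were lower in GF microglia too.

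Of the ligands and receptors that would pair with the members, some were well counted, such as Lifr with 22092 UMIs in all kept Hip nuclei and 12269 in PFC. Others were scarce. The IL-33 receptor gene Il1rl1 had 78 UMIs in all kept Hip nuclei and 102 in PFC. The IL-18 receptor chains were rarer still, with 9 and 17 UMIs of Il18r1 and 37 and 20 of Il18rap, and Il6 had 34 and 25. The MIF receptor gene Cd74 had 517 and 496 UMIs. At this depth a difference in these genes was not detectable where they were not tested. Il1r1, the binding chain that joins the accessory protein, was led by endothelial cells, at 106 ± 42.8 CPM in Hip and 189 ± 49.9 in PFC. Osmr, a partner of gp130 for oncostatin M, was also led by endothelial cells (118 ± 20.5 and 117 ± 34.1 CPM), and Cntfr, its partner for CNTF, was at 105 and 177 CPM in astrocytes. Jak1, the kinase that gp130 and the IL-10 receptor use, was at 197 and 230 CPM in microglia.

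The genes most like each member were ranked by Pearson's r of mean log2(CPM + 1) over the 22 cell types of both regions, which share libraries and depth. Il10ra was most like Ccr1, Gna15 and Csf3r (r = 0.98 for each), of which Ccr1 and Csf3r are receptors of myeloid cells. Il6ra was most like Pan3 (r = 0.93), Map3k3 and Ubtd1 (both 0.89). Il18 was most like Phgdh (r = 0.90), the enzyme that starts serine synthesis, then the glutamate transporter gene Slc1a3 and Lrp4 (both 0.84). Il1rapl1 was most like Tmem132b (r = 0.95), Csmd1 (0.92) and Nlgn1 (0.91), a synaptic adhesion gene, and Il1rapl2 like Kif5c (0.97), Nell1 (0.96) and Nyap2 (0.95). Il1rap was most like Lrrn1 and Rabgap1l (both r = 0.89) and Edil3 (0.87). For Il6st these were Hnrnpa3 (r = 0.86), Sparc (0.85) and Smurf2 (0.84), and for Il33 Papss2 (0.87), Tpmt (0.86) and Gm27021 (0.85). Il10rb was most like Smagp (r = 0.95), Prkch and Trim25 (both 0.92), and Mif like Dnlz (0.93), the mitochondrial complex I gene Ndufs8 (0.92) and Gm9774 (0.91).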

How the data were processed

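Single-nucleus libraries of Hip and PFC were made by the authors with 10x Genomics 3′ chemistry. The deposited values are raw UMI counts per gene and barcode, written by Cell Ranger 3.1.0 per the file headers. The labels name mm10 and CASAVA 1.8. Whether intronic reads were counted is not given in the sources used here. Nuclei with at least 200 genes and at most 10% mitochondrial UMIs were kept, as in the study.

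Cell types were rebuilt by a marker gate: nuclei were scored by likelihood over 12 classes in 3 rounds, and a class needed 2 of its markers and a log likelihood margin of 3. The gate left out 6.21% of Hip and 10.9% of PFC nuclei. No doublet caller was run, and a stricter gate, without the 6475 and 2780 nuclei that carried markers of another class, was an alternative. The border macrophage class, of 109 Hip and 85 PFC nuclei, was not tested. In Hip its 10 leading genes held smooth muscle genes (Acta2, Tagln, Myh11) beside macrophage genes (Mrc1, F13a1, Cd163). UMIs were summed per library and type. Tests were edgeR 4.0.16 (filterByExpr, TMM, glmQLFit, glmQLFTest; R 4.3.3), 1 fit per type over the 9 libraries of a region, or over all 18 for regions, with Benjamini-Hochberg adjustment over all genes of a fit and calls at 0.05. Standard errors were taken as |log2 fold change| over the root of edgeR's F statistic. The script was tested on simulated counts. Orders of cell types used exact sign-flip tests on log2(CPM + 1) over 512 sign flips. Other steps ran in Python 3.11.15 (scipy 1.17.1, numpy 2.4.6, matplotlib 3.10.9, pandas 2.3.3).

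The 10 members were named in every type, with partners and a list of 60 pathway genes set by name, and the 3 genes most like each member. Members and lists were chosen with earlier results of these data known. Hip and PFC of a mouse are the same animal, so the mouse number pairs the regions: deviations from the group means correlated by 0.210 to 0.490 in excitatory neurons (9 of 9 mice above 0.1) and by -0.0989 to 0.389 in other types. The main fit between regions did not use this pairing, and its p-values are unpaired. The mouse as a block was an alternative. Gene span and GC content were read from GENCODE vM21 for 30766 of 30905 genes (99.6%). Alternatives were DESeq2 1.42.0, other size factors, no filter, the stricter gate, equal depth, 6 mice only, the length and GC trend removed, the mouse as a block and each mouse left out. Counting intervals are not given, since errors are SDs between mice.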

Additional observations from a re-analysis of the deposited data

Results flagged for a closer look

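The change between GF and SPF mice differed between Hip and PFC, by the test of the difference itself (edgeR, all 18 libraries, no block for the mouse), in 19 of 58 pairs of member and cell type (32.8%, against 27.7% of all gene and cell type pairs, so near the share of all genes). Values are the log2 change in Hip minus that in PFC. Genes of the IL-1 receptor family gave negative differences: Il1rap in excitatory neurons (-1.14), oligodendrocytes (-0.86), OPC (-0.75) and astrocytes (-0.84), Il1rapl1 in excitatory neurons (-1.41), interneurons (-1.32), oligodendrocytes (-1.16), OPC (-1.33), astrocytes (-0.66) and endothelial cells (-1.45), and Il1rapl2 in excitatory neurons (-1.06) and interneurons (-1.20). Il6ra differed by -0.98 in excitatory neurons and by -2.67 in astrocytes, the latter lost in 5 of 15 alternatives. This astrocyte pair was under the limit on UMIs in both regions. It rests on 5, 2 and 3 UMIs in Hip of GF mice and on 0, 0 and 6 in PFC of SPF mice. It is counted among the 19, but a direction is not read from it. Il33 differed by -2.08 in excitatory neurons, where it rose in GF mice in both regions, more so in PFC. Mif gave positive differences in excitatory neurons (2.26), interneurons (1.99), oligodendrocytes (1.06) and astrocytes (0.90).

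With the trend on gene length and GC content removed and the mouse as a block, 11 of the 19 were lost, 9 of them in genes of the IL-1 receptor family (Il1rap outside excitatory neurons, Il1rapl1 outside excitatory neurons and OPC, and both Il1rapl2 values) and 2 in Mif (oligodendrocytes and astrocytes). Of the 19, 7 were called in every alternative run: Il6ra, Il1rap, Il1rapl1, Il33 and Mif in excitatory neurons, Il1rapl1 in OPC and Mif in interneurons. GF libraries were the deepest in PFC and not in Hip, and their mitochondrial UMIs were the highest in Hip and the lowest in PFC. The part of these measures in the differences was not tested. Groups held 3 mice, so no test for a single outlying mouse was made.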

How the results depend on the processing

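Of the calls of member and cell type, 10 of 30 between GF and SPF mice in Hip were kept in every alternative, 9 of 28 between GF and CGF mice in Hip, 12 of 21 and 11 of 22 in PFC, and 5 of 13, 11 of 24 and 15 of 29 between the regions in GF, SPF and CGF mice. Shares of all gene and cell type pairs are given for the main fit only, so counts under the alternatives are not set against them. With the trend on gene length and GC content removed, 14 pairs passed in Hip against SPF mice in place of 30, and 14 against CGF mice in place of 28. That setting turned the Hip change against SPF mice to 0.34, 0.28 and 0.26 for Il1rapl1 in excitatory neurons, oligodendrocytes and astrocytes and to 0.14 for Il1rapl2 in interneurons. Against CGF mice it gave 0.28, 0.30, 0.38, 0.31 and 0.43 for Il1rapl1 in excitatory neurons, interneurons, oligodendrocytes, OPC and astrocytes and 0.14 for Il1rapl2 in interneurons. The stricter gate turned Il1rapl2 in PFC oligodendrocytes to -0.45 against SPF mice. Without a filter on low counts, 1 pair passed between CGF and SPF mice in Hip. DESeq2 gave 26, 25, 20 and 19 calls in the GF comparisons of Hip and PFC.

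Leaving out each mouse in turn gave 19 to 28 calls between GF and SPF mice in Hip, 23 to 30 between GF and CGF mice in Hip, 17 to 24 and 18 to 23 in PFC, 0 between CGF and SPF mice in either region, 7 to 14, 17 to 25 and 23 to 29 between regions in GF, SPF and CGF mice, and 13 to 20 for the difference between regions. Between GF and SPF mice in Hip the count of 19 was reached without GF mouse 6, and between regions in GF mice that of 7 without GF mouse 5 or 6.

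With the mouse as a replicate block, 17, 25 and 29 pairs differed between regions in GF, SPF and CGF mice in place of 13, 24 and 29, and 23 for the difference between regions in place of 19. With the block and the length and GC trend removed, the counts were 15, 20, 24 and 9. This setting turned Il1rapl1 in SPF mice to -0.28 in excitatory neurons and -0.26 in interneurons, and in CGF mice to -0.28, -0.53 and -0.064 in excitatory neurons, interneurons and astrocytes. It also turned Il1rapl2 in interneurons to -0.061 in SPF and -0.059 in CGF mice. The order of cell types passed in 46 of 77 neighbour pairs, or 44 under the stricter gate. Where no value shows it, the cause of a change was not tested. Depth limited members of few UMIs, above all in PFC of SPF and CGF mice.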

Other observations

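Rarer cell types of Hip, which were not tested between groups, held some of the members at levels near those of the major types. Il6ra was at 101 ± 49.9 CPM in ependymal cells (SD, n = 9), the ciliated lining of the ventricles, and at 94.3 ± 24.5 in choroid plexus nuclei of the 7 libraries that held them, above the 44.1 CPM of endothelial cells and below microglia. Il6st, its signalling partner, was at 124 ± 32.8 CPM in fibroblasts and 94.3 ± 24.4 in ependymal cells. Il1rap was at 238 ± 60.0 CPM in choroid plexus nuclei and 196 ± 59.2 in mural cells, the pericytes and smooth muscle cells of vessel walls. Il1rapl1 stood at 1692 ± 399 CPM in ependymal cells and at 1317 ± 419 in mural cells of Hip, against 303 ± 68.1 in mural cells of PFC. Il18 was at 73.6 ± 28.0 CPM in Hip fibroblasts. These levels rest on few UMIs (a median of 11 to 272 a library), and no test was run on them. RNA of other types was present in the same nuclei. The 8 abundant neuronal genes summed to 6799 to 17267 CPM in mural cells of Hip, against 1857 to 5451 in mural cells of PFC and 24452 to 32111 in excitatory neurons of Hip, so they differed between the regions in the same direction as Il1rapl1. They summed to 2133 to 11299.6 CPM in ependymal cells, 3865 to 6014 in choroid plexus nuclei and 1519 to 6699 in fibroblasts. Hip fibroblasts also carried astrocyte markers at a median of 3393 CPM a nucleus, against 5908 in astrocytes, beside their Il18 level. The part of this RNA in the levels was not tested.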
